A study of Homo sapiens with 12 samples.

Results

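The mitosis and spindle genes are 51 genes whose products build, drive and check the division of the chromosomes. They were found by gene symbol, and for each gene the probe set annotated with that gene alone was used, or the brightest of these where a gene had several. Of the 51 genes, 50 had such a probe set, out of 18417 genes measured. CENPA, the histone that marks the centromere, was read only by a probe set shared with SLC35F6 and is left out.

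Expression was measured with 12 Affymetrix Human Gene 1.0 ST arrays in A172, an adherent human glioblastoma line. There were 4 groups of 3 cultures harvested on day 4 of growth: hHSS1 clone 7 and hHSS1 clone 8, each stably transfected with pcDNA3.1 carrying hHSS1 with a C-terminal histidine tag, mock cells stably transfected with the empty pcDNA3.1 vector, and non-transfected wild-type cells. hHSS1 is now named EMC10, and its product occurs in the membrane complex of the endoplasmic reticulum and as a secreted protein. The clones were compared with mock to find the transcripts that differ with hHSS1 overexpression. Each clone and each control is 1 cell line, so the p-values cover differences among cultures of these lines and not among lines made independently. All values are on the log2 scale.

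In mitosis the condensins compact the chromosomes, while cohesin holds the sister chromatids together until separase cuts it. Kinetochores, built on the centromeres, attach the chromatids to spindle microtubules, kinesin motors slide and shorten these microtubules, and a checkpoint delays anaphase until each kinetochore is attached. CDK1 with its cyclins, Polo-like kinase 1 and the Aurora kinases start these steps, and the anaphase-promoting complex ends them. Most of these genes are transcribed together in G2 and mitosis, under B-MYB, FOXM1 and the MuvB complex, and their transcripts are therefore most abundant in dividing cell populations.

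EMC10 read between 11.57 and 12.30 on the 6 clone arrays, between 9.20 and 9.51 on the mock arrays and between 10.43 and 11.13 on the wild-type arrays. The array medians lay between 8.60 and 8.67. Of 10 astroglial and glioma markers, 4 (VIM, NES, CD44 and SOX9) were above the array median on all 12 arrays. GFAP was above it on 10 arrays, SOX2 on 5, and SLC1A3 and OLIG2 on 0. The astroglial genes S100B and AQP4 were below the lower quartile on all 12, as were PECAM1 of endothelium, AIF1 of macrophages and DCN of fibroblasts. Of the other markers, 1 of 5 neuronal, 3 of 5 epithelial, 1 of 5 endothelial, 1 of 5 leukocyte and 5 of 7 fibroblast and pericyte genes were above the median on all 12 arrays. Pairs of arrays did not all follow their labels. Over all genes, as deviations from each gene's 12-array mean, the array labelled clone 7 replicate 3 correlated between -0.343 and -0.326 with the other clone 7 arrays and between 0.482 and 0.769 with clone 8 replicates 1 and 2. The array labelled clone 8 replicate 3 correlated between -0.404 and 0.086 with the other clone 8 arrays and between 0.559 and 0.635 with clone 7 replicates 1 and 2. With each other, replicates 1 and 2 correlated at 0.791 in clone 7 but at 0.292 in clone 8. Within wild-type the range was 0.544 to 0.697, and within mock 0.563 to 0.664. The labels were kept as given. Results that rest on the 2 clone arrays numbered 3 are also given over the other 10 arrays. This choice was made after the data were seen. The mean difference of both clones from a control would be the same if the 2 clone arrays numbered 3 were exchanged, while its error would not.

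The mitosis and spindle genes stood lower in clones 7 and 8 than in mock. All 50 differences were below 0, with a median of -0.38 and a range of -0.66 (PIMREG) to -0.12 (TOP2A), where the median over all 18417 genes was 0.01. At an adjusted p under 0.05, 33 of the 50 fell (66%), against 3.51% of all genes, and 0 rose, against 2.87% of all genes (limma, 47 of the 50 at an unadjusted p under 0.05, all lower, against 20% of all genes in either direction). A change of at least 1.5-fold together with an adjusted p under 0.05 was reached by 4 members, PIMREG, SGO2, KIF4A and ERCC6L, where 0.32% of all genes were lower by these limits and 0.407% higher. Most of the decreases were thus smaller than 1.5-fold. RNA was taken from whole cultures, in which fewer cells in mitosis and less RNA per cell cannot be told apart. Over the 10 arrays 46 members fell, against 7.65% of all genes lower and 5.47% higher, with a median of -0.37. The count was 19 without mock replicate 1 and 16 without mock replicate 2.

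**Figure D1:**
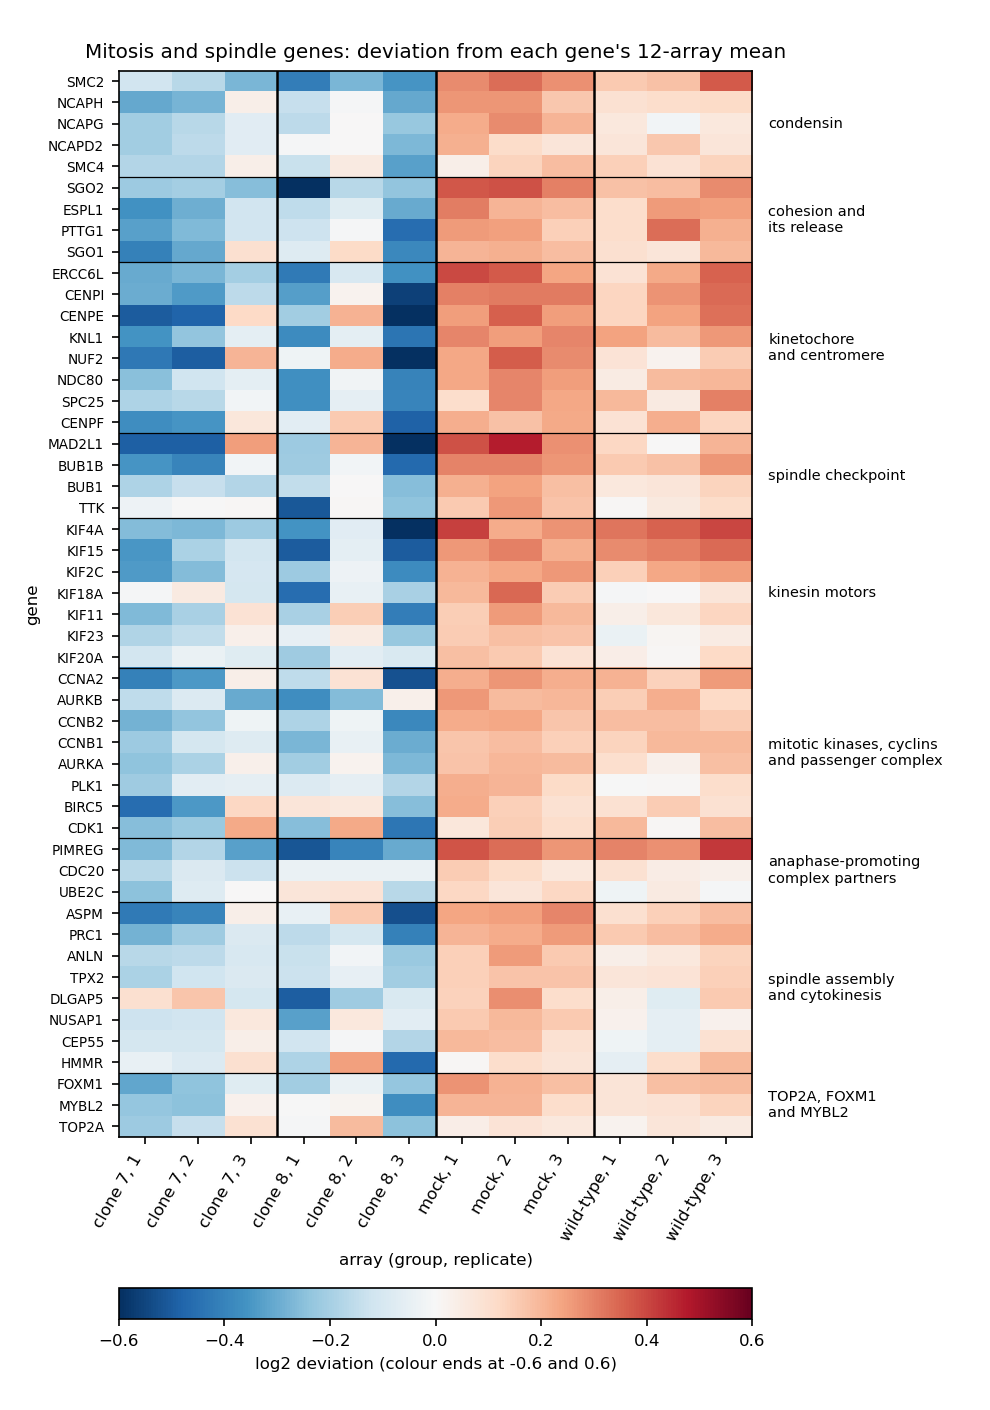
Heat map of the 50 genes (rows, grouped by role and ordered by their difference within it) on the 12 arrays (columns, clone 7, clone 8, mock and wild-type), coloured by the log2 deviation from each gene's mean over 12 arrays, blue below and red above. All 50 genes lay above their mean on each mock array, and on clone 7 replicate 1 only 1 gene did.

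The decrease was visible array by array. The median deviation of the members from their own 12-array mean was -0.24, -0.19 and -0.06 on the clone 7 arrays and -0.19, -0.01 and -0.32 on the clone 8 arrays, against 0.22, 0.23 and 0.19 on the mock arrays and 0.09, 0.10 and 0.17 on the wild-type arrays. Each clone array was thus below each control array by this measure, and clone 8 replicate 2 and clone 7 replicate 3 came nearest to the controls. Within its own group, clone 8 replicate 2 was above the group mean for 49 of the 50 genes and clone 7 replicate 3 for 42, whereas clone 8 replicate 3 was above it for 8 and clone 7 replicate 1 for 5. The members therefore varied together between arrays labelled as the same clone. Of all genes, 44.8% were above the group mean on clone 8 replicate 2 and 57.4% on clone 7 replicate 3. On clone 8 replicate 3 and clone 7 replicate 1 these shares were 57.5% and 46.1%. Over all genes, replicate 3 of each clone resembled the other clone, so this variation need not lie among cultures of 1 clone. Whether it does was not tested. By these labels, the median SD of the members was 0.11 in clone 7 and 0.19 in clone 8 (n = 3 each). It was 0.05 in mock and 0.05 in wild-type cells (n = 3 each). Over all genes it was 0.08 in clone 7, 0.14 in clone 8, 0.05 in mock and 0.07 in wild-type cells.

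**Figure D2:**
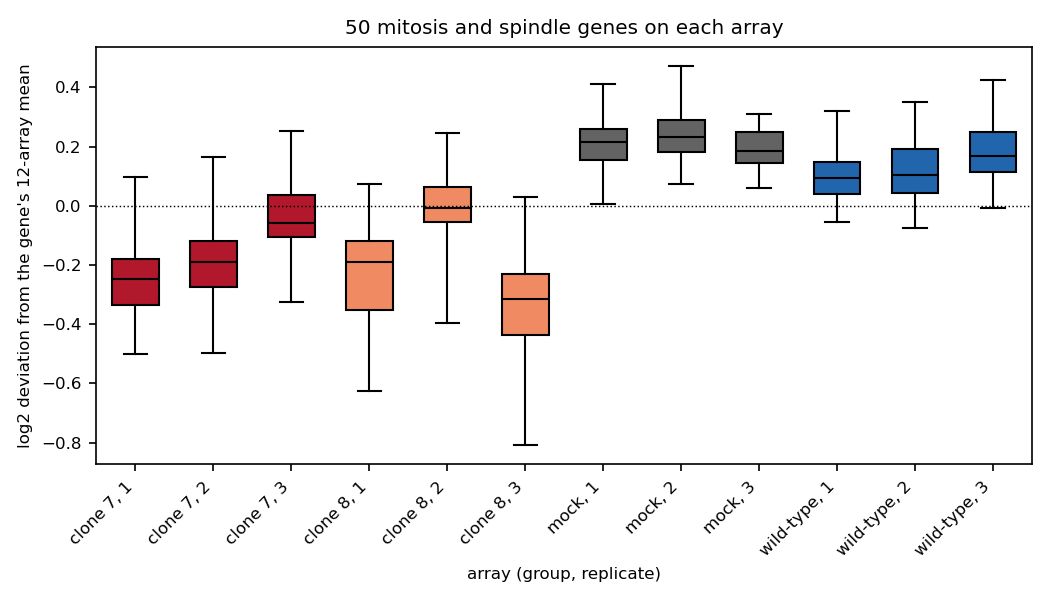
Box plot of the log2 deviations of the 50 genes from their 12-array means (vertical axis) on each array (horizontal axis), with the median as a line, the quartiles as the box and the full range as whiskers. Medians were below 0 on all 6 clone arrays and above 0 on all 6 control arrays.

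For 43 of the 50 genes all 6 clone arrays lay below all 3 mock arrays, against 8.39% of all genes, and for 30 they lay below all 6 control arrays, against 4.27%. With the 4 clone arrays numbered 1 and 2 alone these counts were 44 (10.8% of all genes) and 32 (5.53%). The 7 genes whose clone and mock arrays overlapped were BIRC5, CDK1, DLGAP5, HMMR, SMC4, TOP2A and UBE2C. Clone 7 alone was below all 6 control arrays for 35 genes, against 6.45% of all genes, and clone 8 alone for 34, against 7.11%. In the opposite direction, 0 members had all clone arrays above mock (5.77% of all genes), above wild-type (6.88%) or above all 6 control arrays (2.55%).

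The promoters of these genes share short sequence elements that the choice of genes did not use. RefSeq promoter windows (GRCh38.p14, 250 bases before the transcription start and 50 after it) were held for 42 of the 50 genes, 6 of them with more than 1 window. PIMREG, KNL1, TTK, AURKA, BIRC5, UBE2C, TPX2 and FOXM1 had none in the table. The cell cycle genes homology region (CHR, searched as TTTGAA or TTTAAA on either strand) is the site through which MuvB complexes act, and the CCAAT box (searched as CCAAT on either strand) binds NF-Y. A CHR was found in 36 of the 42 genes (85.7%, exact 95% interval 71.5 to 94.6), against 27.9% of the 27305 genes in the table, and a CCAAT box in 30 (71.4%, 55.4 to 84.3), against 39.7%. Counting only the bases before the start, the CHR shares were 71.4% of the members and 25.5% of all genes. Both elements were present in 26 members. E2F-type sites (TTTGGCGC, TTTCGCGC or TTTCCCGC on either strand) were found in 3 members, CDK1, KIF15 and NUSAP1 (7.14%), against 3.3% of all genes. CENPI and MYBL2 had none of the 3 elements. Matches to so few letters are a description of the sequence, not of binding.

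Matches lay at like distances from the start in many members. Of the CHR matches, 10 began 21 to 30 bases before the start, the fullest bin of 10 bases, and of the CCAAT matches 13 began 51 to 60 bases before it. In the last 100 bases before the start, a stretch chosen after the matches were seen, 54.8% of the members held a CHR, against 10.1% of all genes. Over the whole window a CHR was present in 23 of the 27 members with a window that fell against mock and in 13 of the 15 not called. A CCAAT box was present in 19 of the 27 and 11 of the 15. In the last 100 bases the counts were 16 of 27 and 7 of 15 for the CHR, and 16 of 27 and 10 of 15 for the CCAAT box. Members not called also had differences below 0, and whether the elements separate these members was not tested.

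**Figure D3:**
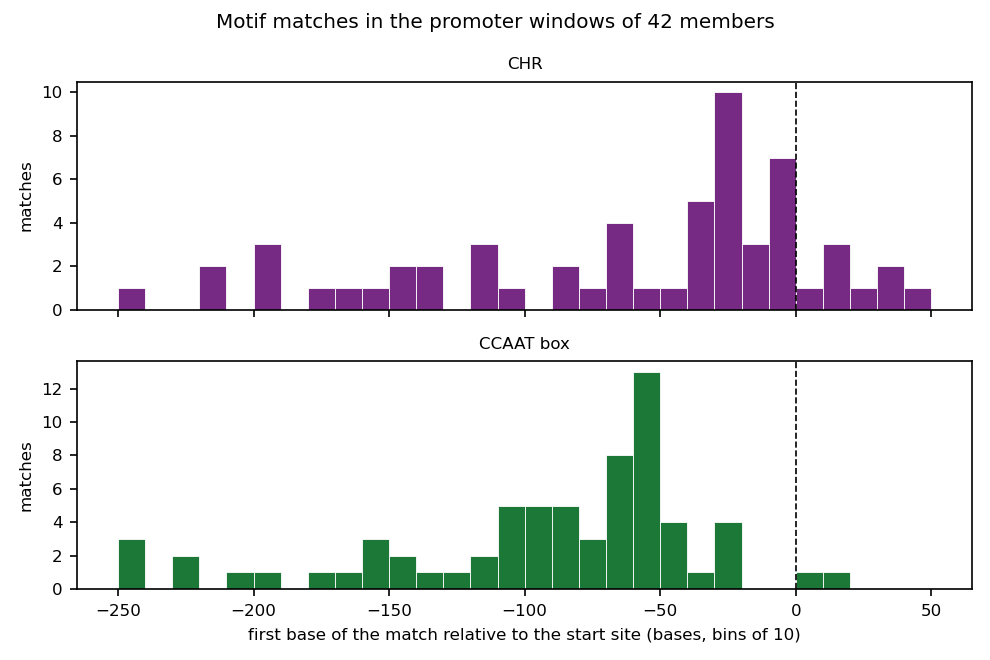
Histogram of CHR matches (upper panel) and CCAAT box matches (lower panel) in the promoter windows of 42 members, by the position of the first base of the match relative to the start site (horizontal axis, bins of 10 bases, dashed line at the start) and the number of matches (vertical axis). The fullest CHR bin held 10 matches and the fullest CCAAT bin 13.

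The 120 bases before the start are shown for the 6 members that passed both limits against mock over 12 arrays, in 1 clone or in both together, and had a window (SGO2, KIF4A, ERCC6L, SMC2, KIF15 and CENPI), for CCNB2, a member with both elements that fell by less, and for HMMR and TOP2A, which had the smallest differences. They run 5′ to 3′ on the strand of the gene, with complete CHR and CCAAT matches on either strand in capitals. Their coordinates in GRCh38.p14 are chr2:200526087-200526206 for SGO2 (plus strand, the second of 2 windows), chrX:70289984-70290103 for KIF4A (plus), chrX:72239028-72239147 for ERCC6L (minus), chr9:104094189-104094308 for SMC2 (plus, the first of 2 windows), chr3:44761674-44761793 for KIF15 (plus), chrX:101100938-101101057 for CENPI (plus), chr15:59105026-59105145 for CCNB2 (plus), chr5:163460512-163460631 for HMMR (plus) and chr17:40417897-40418016 for TOP2A (minus).
SGO2: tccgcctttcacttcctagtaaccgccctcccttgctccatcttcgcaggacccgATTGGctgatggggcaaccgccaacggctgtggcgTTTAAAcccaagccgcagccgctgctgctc
KIF4A: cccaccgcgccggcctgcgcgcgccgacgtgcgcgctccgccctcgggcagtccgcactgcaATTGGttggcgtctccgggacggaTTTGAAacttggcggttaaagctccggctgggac
ERCC6L: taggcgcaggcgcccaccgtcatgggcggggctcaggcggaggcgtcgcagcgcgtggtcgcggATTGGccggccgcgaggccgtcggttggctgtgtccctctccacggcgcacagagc
SMC2: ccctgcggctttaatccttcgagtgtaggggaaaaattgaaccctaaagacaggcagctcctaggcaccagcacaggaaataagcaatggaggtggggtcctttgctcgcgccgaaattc
KIF15: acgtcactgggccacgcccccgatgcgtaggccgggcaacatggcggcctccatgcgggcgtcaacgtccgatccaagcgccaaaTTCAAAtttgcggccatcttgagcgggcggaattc
CENPI: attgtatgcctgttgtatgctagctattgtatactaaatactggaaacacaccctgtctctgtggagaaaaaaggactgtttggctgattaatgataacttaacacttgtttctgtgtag
CCNB2: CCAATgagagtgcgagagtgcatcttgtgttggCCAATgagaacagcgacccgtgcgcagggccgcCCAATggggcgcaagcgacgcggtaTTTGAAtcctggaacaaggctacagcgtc
HMMR: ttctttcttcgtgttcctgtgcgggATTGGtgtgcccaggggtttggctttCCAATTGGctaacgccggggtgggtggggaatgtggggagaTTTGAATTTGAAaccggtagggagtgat
TOP2A: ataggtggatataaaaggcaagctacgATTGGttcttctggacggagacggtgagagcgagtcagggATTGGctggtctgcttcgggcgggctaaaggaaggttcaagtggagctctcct
SGO2 and KIF4A each held a CHR near the start (first base at -30 and -34) with a CCAAT box upstream of it (at -65 and -58), and CCNB2 held a CHR at -29 behind CCAAT boxes at -120, -87 and -54. KIF15 held a CHR at -35 and no CCAAT box. In ERCC6L the nearest CHR lay at -212, outside the stretch shown, and in SMC2 it spanned the start, from -3 to 3. HMMR, with a small difference, held adjoining CHR matches at -28 and -22, and TOP2A held CCAAT boxes at -93 and -53 with its CHR matches further out, at -194 and -151.

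By role, the kinetochore genes had the lowest median difference between the clones and mock (-0.51), followed by the spindle checkpoint (-0.45), cohesion and its release (-0.44), the condensins (-0.37), the kinesins (-0.36), the kinases, cyclins and passenger complex (-0.33), the TOP2A, FOXM1 and MYBL2 group (-0.31), spindle assembly and cytokinesis (-0.29) and the anaphase-promoting complex partners (-0.19). These medians rest on 3 to 8 genes each, and the order was not tested.

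**Figure D4:**
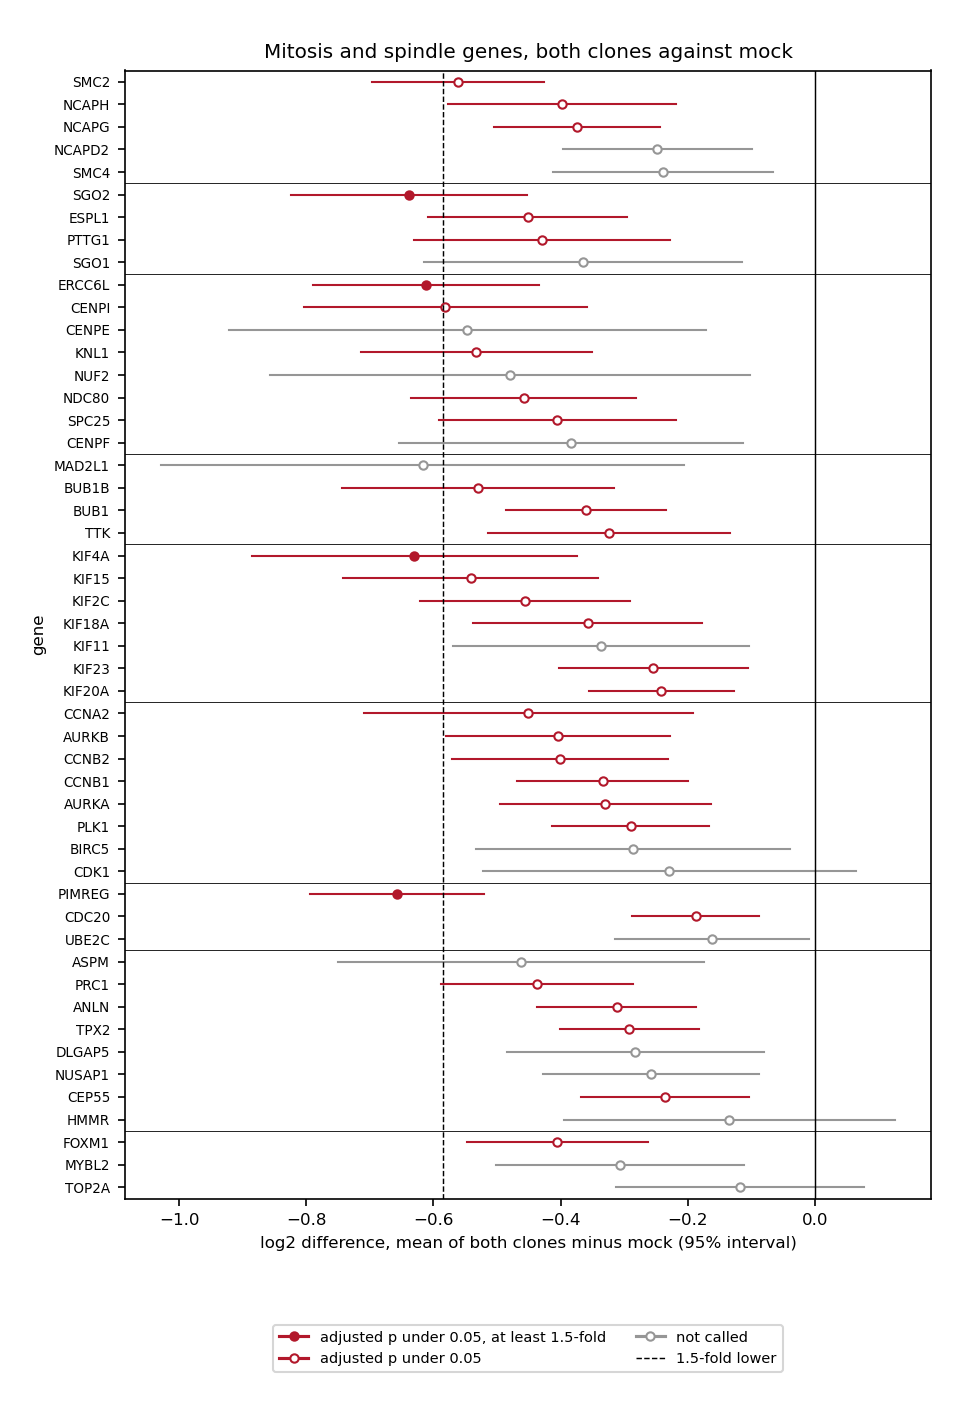
Log2 difference of the mean of both clones minus mock (horizontal axis, with its 95% interval from limma) for each of the 50 genes (rows, by role). Filled red points passed an adjusted p of 0.05 and 1.5-fold, open red points the adjusted p alone and grey points neither, and every point lies left of 0, between -0.66 and -0.12.

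Among the condensins, 3 of 5 fell against mock. SMC2, an ATPase core subunit shared by both condensins, read 11.03, 10.98 and 10.87 in clone 7 and 10.73, 10.87 and 10.79 in clone 8, against 11.43, 11.48 and 11.42 in mock and 11.30, 11.32 and 11.51 in wild-type cells. All clone arrays were below all controls, and its fall was 1.48-fold (log2 -0.56 ± 0.06 SE, adjusted p = 0.000394). NCAPH, the kleisin that closes the ring (log2 -0.40 ± 0.08), and NCAPG (log2 -0.37 ± 0.06) were lower too. SMC4, the partner of SMC2, read 12.10, 12.10 and 12.31 in clone 7 and 12.14, 12.33 and 11.95 in clone 8, against 12.31, 12.41 and 12.46 in mock and 12.42, 12.36 and 12.41 in wild-type cells. Its clone 8 replicate 2 and clone 7 replicate 3 arrays reached the mock range, and the difference of -0.24 ± 0.08 was not called (adjusted p = 0.103). Over the 10 arrays it was -0.23, with an adjusted p of 0.0284.

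In the group that guards and releases cohesion, 3 of 4 fell. SGO2, a shugoshin that shields centromeric cohesin from cleavage, read 10.10, 10.11 and 10.06 in clone 7 and 9.69, 10.15 and 10.08 in clone 8, against 10.69, 10.70 and 10.62 in mock and 10.49, 10.50 and 10.60 in wild-type cells. The groups did not overlap, clone 8 replicate 1 was the lowest, and the fall was 1.56-fold (log2 -0.64 ± 0.09, adjusted p = 0.00122). Without clone 8 replicate 1 it was log2 -0.57, under 1.5-fold. The separase ESPL1 (log2 -0.45 ± 0.07) and its inhibitor securin, PTTG1 (log2 -0.43 ± 0.09), fell by less, and PTTG1 has near-identical copies that make its value uncertain. SGO1, the other shugoshin, read 10.36, 10.46 and 10.86 in clone 7 and 10.69, 10.88 and 10.38 in clone 8, against 10.97, 10.98 and 10.95 in mock and 10.86, 10.84 and 10.96 in wild-type cells. Clone 7 replicate 3 and clone 8 replicate 2 lay close to the controls, and its difference of -0.36 ± 0.12 was not called over 12 arrays (adjusted p = 0.0876), while over 10 arrays it was -0.37 with an adjusted p of 0.00213.

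At the kinetochore and centromere 5 of 8 genes fell. ERCC6L, the helicase PICH that coats stretched DNA threads in anaphase, read 7.71, 7.74 and 7.81 in clone 7 and 7.59, 7.92 and 7.65 in clone 8, against 8.41, 8.38 and 8.25 in mock and 8.10, 8.24 and 8.37 in wild-type cells. It was the dimmest member, above the lower quartile of every array (7.12 at the highest) but below every array median, its clone arrays were below all controls, and it fell 1.53-fold (log2 -0.61 ± 0.08, adjusted p = 0.00119). Leaving out mock replicate 1 or clone 8 replicate 1 brought it to log2 -0.58, under 1.5-fold. CENPI, a subunit of the inner kinetochore, read 10.37, 10.33 and 10.51 in clone 7 and 10.34, 10.69 and 10.11 in clone 8, against 10.97, 10.98 and 10.98 in mock and 10.80, 10.94 and 11.01 in wild-type cells. The groups were apart, mock varied least (SD 0.0048), and the fall was just under 1.5-fold (log2 -0.58 ± 0.10, adjusted p = 0.00594).

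The outer kinetochore genes KNL1, the scaffold on which checkpoint proteins gather (log2 -0.53 ± 0.08), NDC80 (log2 -0.46 ± 0.08) and SPC25 (log2 -0.41 ± 0.09), subunits of the microtubule-binding NDC80 complex, fell as well. Not called were CENPE, a kinetochore motor (log2 -0.55 ± 0.17, adjusted p = 0.0873), NUF2 of the NDC80 complex (log2 -0.48 ± 0.17, adjusted p = 0.134) and CENPF. CENPF, a large protein of the outer kinetochore, read 11.68, 11.70 and 12.12 in clone 7 and 11.99, 12.21 and 11.57 in clone 8, against 12.27, 12.23 and 12.28 in mock and 12.14, 12.27 and 12.18 in wild-type cells. Its arrays split within each clone, with clone 7 replicate 3 and clone 8 replicates 1 and 2 above the other 3, and the difference was -0.38 ± 0.12 (adjusted p = 0.0945, and 0.00231 over 10 arrays).

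Of the 4 spindle checkpoint genes, BUB1B (log2 -0.53 ± 0.10), BUB1 (log2 -0.36 ± 0.06) and TTK fell. TTK, the MPS1 kinase at the head of the checkpoint, read 10.16, 10.19 and 10.20 in clone 7 and 9.68, 10.20 and 9.95 in clone 8, against 10.35, 10.45 and 10.36 in mock and 10.20, 10.25 and 10.30 in wild-type cells. Clone 8 replicate 1 was the lowest array and clone 7 varied little, and the fall of log2 -0.32 ± 0.09 was close to the limit (adjusted p = 0.0476). It was lost in 12 of 21 alternatives, with adjusted p up to 0.219. MAD2L1, which encodes the checkpoint protein that holds back CDC20, read 9.65, 9.65 and 10.39 in clone 7 and 9.92, 10.34 and 9.42 in clone 8, against 10.52, 10.61 and 10.41 in mock and 10.26, 10.14 and 10.34 in wild-type cells. Clone 7 replicate 3 and clone 8 replicate 2 lay beside the controls while the other 4 clone arrays were well below them, so that a difference as large as that of ERCC6L (-0.62 ± 0.19) was not called (adjusted p = 0.0785). Without the arrays numbered 3 of both clones it was called (log2 -0.62, adjusted p = 0.00128), although clone 8 replicate 2 stayed near mock.

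Among the kinesins 6 of 7 fell. KIF4A, a chromokinesin that binds PRC1 at the spindle midzone, read 10.10, 10.09 and 10.14 in clone 7 and 10.00, 10.29 and 9.55 in clone 8, against 10.77, 10.58 and 10.63 in mock and 10.68, 10.71 and 10.76 in wild-type cells. The clones lay below the controls throughout, with clone 8 replicate 3 the lowest, and the fall was 1.55-fold (log2 -0.63 ± 0.12, adjusted p = 0.00835). It was log2 -0.58 with an adjusted p of 0.0616 without mock replicate 1, and log2 -0.53, under 1.5-fold, without clone 8 replicate 3. KIF4A has a near-identical copy, KIF4B, which makes its value uncertain, and a probe set assigned to both genes stood at log2 -0.48 ± 0.07. KIF15, which works beside KIF11 in keeping the spindle poles apart, read 9.49, 9.65 and 9.73 in clone 7 and 9.34, 9.78 and 9.34 in clone 8, against 10.10, 10.14 and 10.05 in mock and 10.12, 10.14 and 10.18 in wild-type cells. The groups were apart and the fall was 1.46-fold (log2 -0.54 ± 0.09, adjusted p = 0.00502).

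KIF2C, which depolymerizes microtubules at the centromere (log2 -0.46 ± 0.08), KIF18A, which limits microtubule length (log2 -0.36 ± 0.08), and the cytokinesis motor KIF23 (log2 -0.25 ± 0.07) fell by less. KIF20A, a motor that carries the passenger complex to the midzone, read 12.20, 12.27 and 12.24 in clone 7 and 12.10, 12.25 and 12.22 in clone 8, against 12.49, 12.47 and 12.40 in mock and 12.35, 12.32 and 12.43 in wild-type cells. It was the least changed kinesin, with tight groups that did not overlap and a fall of log2 -0.24 ± 0.05 (adjusted p = 0.018), which was lost without any of the mock arrays (adjusted p of 0.0523 to 0.111). KIF11, the Eg5 motor, was not called (log2 -0.34 ± 0.11, adjusted p = 0.0888).

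Of the kinases, cyclins and passenger complex genes 6 of 8 fell, all by less than 1.5-fold. CCNA2, cyclin A2, read 11.52, 11.58 and 11.96 in clone 7 and 11.77, 12.01 and 11.40 in clone 8, against 12.14, 12.19 and 12.14 in mock and 12.13, 12.06 and 12.18 in wild-type cells. Clone 7 replicate 3 and clone 8 replicate 2 were the highest clone arrays, still below mock, and the difference of -0.45 ± 0.12 (adjusted p = 0.044) lost its call in 11 of 21 alternatives. The mitotic cyclins CCNB2 (log2 -0.40 ± 0.08) and CCNB1 (log2 -0.33 ± 0.06) fell, as did AURKB, the kinase of the passenger complex (log2 -0.40 ± 0.08), AURKA, the kinase of the spindle poles (log2 -0.33 ± 0.08), and PLK1 (log2 -0.29 ± 0.06). CDK1, the kinase that starts mitosis, read 10.81, 10.84 and 11.29 in clone 7 and 10.81, 11.29 and 10.63 in clone 8, against 11.13, 11.21 and 11.17 in mock and 11.26, 11.07 and 11.25 in wild-type cells. On clone 7 replicate 3 and clone 8 replicate 2 it was above every mock array, and its difference of -0.23 ± 0.13 was not called over 12 arrays (adjusted p = 0.391) or over 10 (log2 -0.24, adjusted p = 0.142). BIRC5, survivin of the passenger complex, was not called either (log2 -0.29 ± 0.11, adjusted p = 0.173).

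The partners of the anaphase-promoting complex differed widely. PIMREG, a mitotic protein linked to the step from metaphase to anaphase, read 11.08, 11.17 and 11.02 in clone 7 and 10.83, 10.95 and 11.04 in clone 8, against 11.72, 11.68 and 11.61 in mock and 11.64, 11.62 and 11.77 in wild-type cells. It had the largest fall of the 50 genes, 1.58-fold (log2 -0.66 ± 0.06, adjusted p = 0.000126), with the clones apart from all controls, and it kept both limits in all 21 alternatives (log2 -0.69 to -0.63). CDC20, the activator of the complex, fell by 0.19 on the log2 scale (SE 0.05, adjusted p = 0.0307). UBE2C, the ubiquitin-conjugating enzyme that works with it, read 10.22, 10.39 and 10.47 in clone 7 and 10.54, 10.55 and 10.30 in clone 8, against 10.59, 10.54 and 10.59 in mock and 10.44, 10.52 and 10.46 in wild-type cells. Clone 8 replicates 1 and 2 reached the mock range, and the difference of -0.16 ± 0.07 was not called (adjusted p = 0.219).

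**Figure D5:**
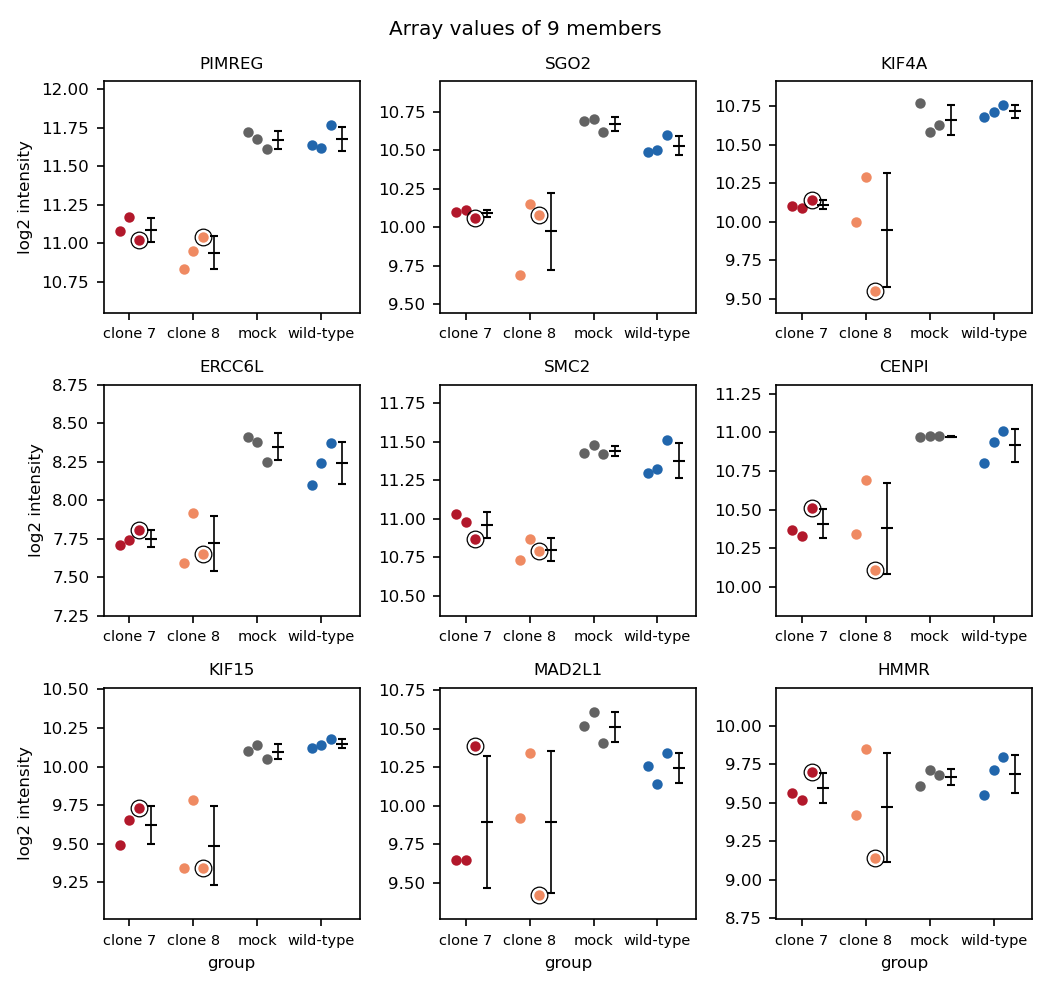
Log2 level (vertical axes, each spanning 1.5 log2 units) of 9 genes on each array by group (horizontal axes), with a point per array, the mean and SD (n = 3) at the right of each group, and a ring around replicate 3 of each clone. In the first 7 panels every clone array is below every mock array, MAD2L1 is split within both clones (9.42 to 10.39), and HMMR overlaps mock.

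Spindle assembly and cytokinesis genes gave 4 falls among 8. PRC1, which bundles midzone microtubules (log2 -0.44 ± 0.07), the scaffold anillin ANLN (log2 -0.31 ± 0.06), TPX2, the activator of AURKA (log2 -0.29 ± 0.05), and CEP55, which recruits the abscission machinery (log2 -0.24 ± 0.06), fell. ASPM, a protein of the spindle poles, read 11.08, 11.11 and 11.54 in clone 7 and 11.46, 11.66 and 10.98 in clone 8, against 11.74, 11.75 and 11.80 in mock and 11.60, 11.65 and 11.69 in wild-type cells. Its clone arrays were below mock but spread over a wide range, and the difference of -0.46 ± 0.13 was not called (adjusted p = 0.0609, and 0.000596 over 10 arrays). HMMR, a microtubule-associated protein of the spindle poles, read 9.56, 9.52 and 9.70 in clone 7 and 9.42, 9.85 and 9.14 in clone 8, against 9.61, 9.71 and 9.68 in mock and 9.55, 9.71 and 9.80 in wild-type cells. Clone 8 held both its highest and its lowest array, and its difference of -0.13 ± 0.12 had an interval of -0.40 to 0.13 (adjusted p = 0.595).

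In the last group FOXM1 fell. FOXM1, a transcription factor for G2 and mitosis genes, read 11.74, 11.81 and 11.98 in clone 7 and 11.84, 12.01 and 11.82 in clone 8, against 12.32, 12.26 and 12.23 in mock and 12.13, 12.23 and 12.24 in wild-type cells. The groups were apart, with a fall of 1.32-fold (log2 -0.40 ± 0.07, adjusted p = 0.00375). MYBL2, which encodes B-MYB, was not called (log2 -0.31 ± 0.09, adjusted p = 0.0671). TOP2A, the topoisomerase that untangles sister DNA, read 12.05, 12.13 and 12.36 in clone 7 and 12.26, 12.46 and 12.02 in clone 8, against 12.31, 12.35 and 12.33 in mock and 12.29, 12.34 and 12.32 in wild-type cells. The groups overlapped and its difference was the smallest of the 50, at -0.12 ± 0.09 with an interval of -0.31 to 0.08 (adjusted p = 0.527).

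Over the 10 arrays more genes were called lower in most of these groups. Calls rose among all genes too, to 7.65% lower and 5.47% higher, from 3.51% and 2.87% over 12 arrays. By role 5 of 5 condensins, 4 of 4 cohesion genes, 8 of 8 kinetochore genes, 4 of 4 checkpoint genes, 7 of 7 kinesins, 7 of 8 kinases and cyclins, 2 of 3 anaphase-promoting complex partners, 7 of 8 spindle assembly genes and 2 of 3 in the last group fell. Past both limits were PIMREG, SGO2, ERCC6L and MAD2L1, 4 genes as before, against 0.483% of all genes lower, while KIF4A stood at log2 -0.54. Leaving out arrays that stand apart from their group lowers the spread by construction.

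Taken clone by clone against mock, all 50 differences were again below 0 in each. In clone 7 the median was -0.39, and 24 genes fell, against 1.32% of all genes lower and 1.82% higher, with ERCC6L alone past both limits (log2 -0.60 ± 0.09, adjusted p = 0.0055), against 0.233% of all genes lower by these limits and 0.467% higher. Clone 8 had a median of -0.39 and 30 genes that fell, against 3.12% of all genes lower and 1.97% higher, 7 of them past both limits, against 0.456% lower and 0.304% higher. These were PIMREG (log2 -0.73 ± 0.07), KIF4A (log2 -0.71 ± 0.14), SGO2 (log2 -0.70 ± 0.10), SMC2 (log2 -0.64 ± 0.07), ERCC6L (log2 -0.63 ± 0.09), KIF15 (log2 -0.61 ± 0.11) and CENPI (log2 -0.60 ± 0.12). Clones 7 and 8 were set against the same mock arrays, so these are not independent results. Counts for 1 clone rested on few arrays. Leaving out any of the mock arrays brought them to between 5 and 8 in clone 7 and between 7 and 9 in clone 8, and the count for clone 7 was 5 without its replicate 1, 6 without its replicate 2 and 15 without wild-type replicate 1 or 2. For clone 8 it was 16 without its replicate 1, and 4 when only the clone 8 and mock arrays were fitted. Past both limits in clone 7 there were 0 genes without clone 7 replicate 1, mock replicate 1 or mock replicate 2, 3 without clone 7 replicate 2 or mock replicate 3 and 8 without clone 7 replicate 3. In clone 8 there were 3 without replicate 1, 13 without replicate 2 and 4 without replicate 3. How many of all genes were called in these fits is not given here, so the changed counts need not be particular to the members.

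Over the 10 arrays, with the labels that the remaining arrays carry, 43 genes fell in clone 7 (median -0.43, 6.8% of all genes lower and 7.5% higher) and 32 in clone 8 (median -0.29, 8.73% of all genes lower and 4.93% higher). Past both limits in clone 7 were then 8 genes, MAD2L1 (log2 -0.86), CENPE (log2 -0.78), NUF2 (log2 -0.75), ASPM (log2 -0.68), BUB1B (log2 -0.66), ERCC6L (log2 -0.63), CENPI (log2 -0.62) and CCNA2 (log2 -0.61), against 0.738% of all genes lower. In clone 8 they were PIMREG (log2 -0.78), SGO2 (log2 -0.75), SMC2 (log2 -0.64) and ERCC6L (log2 -0.59), against 1.28%. ERCC6L passed in each clone by either set of arrays.

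No member was called different between clone 8 and clone 7 over 12 arrays. Replicate 3 of each clone resembled the other clone over all genes, so by these labels a difference between the clones could be hidden. The absence of calls therefore cannot show that the clones are alike. At an adjusted p under 0.05, 0 of the 50 and 0% of all genes were called in either direction (limma, 4 of the 50 at an unadjusted p under 0.05, against 7.21% of all genes). Differences of clone 8 minus clone 7 ranged from -0.32 (DLGAP5) to 0.18 (BIRC5) with a median of -0.01, and their 95% intervals reached from -0.55 to 0.53. With the clone arrays numbered 3 left out, clone 8 was higher than clone 7 by 0.12 at the median, by 0.56 in NUF2, 0.49 in CENPE, 0.48 in MAD2L1, 0.47 in ASPM and 0.47 in BIRC5, and lower by 0.48 in DLGAP5. In that fit 1 member was called lower and 13 higher, against 1965 lower and 1201 higher of all 18417 genes. The arrays left out were picked by their values, so these values are a description and do not test the clones. Clone 7 replicates 1 and 2 were both below clone 8 replicates 1 and 2 for 25 of the 50 genes, against 24.8% of all genes, and both above them for 5, against 24.6%.

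No member was called different between mock and wild-type cells. Mock minus wild-type differences ranged from -0.06 (KIF4A) to 0.27 (MAD2L1) with a median of 0.07, against 0.02 over all genes. At an adjusted p under 0.05, 0 of the 50 genes were lower, against 1.24% of all genes, and 0 were higher, against 1% (limma, 2 of the 50 at an unadjusted p under 0.05, against 12.1% of all genes). With array weights 4 members were called higher in mock, and with a fit of mock and wild-type arrays alone 3. Shares of all genes called in those fits are not given here.

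Set against wild-type cells, the clones were lower in all 50 genes. The median was -0.28, against -0.38 for the clones against mock, although 8 genes, KIF4A, KIF15 and PIMREG among them, were lower still against wild-type than against mock. For the clones against wild-type the median of all genes was 0.03, and 23 members fell, against 5.32% of all genes lower and 4.63% higher. Past both limits were KIF4A (log2 -0.69 ± 0.12, adjusted p = 0.00335), PIMREG (log2 -0.66 ± 0.06, adjusted p = 5.75e-05) and KIF15 (log2 -0.59 ± 0.09, adjusted p = 0.00179), against 0.673% of all genes lower and 0.907% higher. Over 10 arrays 35 genes fell (9.65% of all genes lower, 7.42% higher), and KIF4A and PIMREG passed both limits, against 0.831%. For 31 genes all clone arrays were below all wild-type arrays, against 8.38% of all genes. The count of 23 was 14 without wild-type replicate 2, 11 without wild-type replicate 3 and 38 without clone 8 replicate 2, with the shares of all genes in these fits not given here. Both comparisons use the same clone arrays.

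Other genes of cell division, which are not among the 50, were counted by list. Of 135 such genes for mitosis, its regulators and the centrosome, 47 were lower and 4 higher in clones 7 and 8 than in mock. These counts are at an adjusted p under 0.05, and the median was -0.24. Of all genes, 3.51% were lower and 2.87% higher by this limit. Over 10 arrays 67 of the 135 were lower and 6 higher, against 7.65% and 5.47% of all genes. Calls thus rose among all genes too, so the rise to 67 need not be particular to these genes. The same shares of all genes apply to the lists that follow. Past both limits were LIN9, a MuvB subunit (log2 -0.69 ± 0.12, adjusted p = 0.00489), NEK2, a kinase that splits the centrosomes (log2 -0.67 ± 0.12, adjusted p = 0.00544), and GPSM2, which anchors the spindle to the cortex (log2 -0.62 ± 0.08, adjusted p = 0.00119), all lower, and BUB3, higher. Among other spindle and cytokinesis genes 16 of 27 fell, among genes for entry into mitosis 8 of 14, led by MASTL, the Greatwall kinase (log2 -0.54 ± 0.11), and among other kinetochore genes 10 of 27, of which SKA1 fell the most (log2 -0.49 ± 0.12). Centriole duplication gave 3 of 8, led by CEP152 (log2 -0.58 ± 0.09), condensin II gave 1 of 3, NCAPD3 (log2 -0.43 ± 0.10), and cohesin 2 of 13, led by STAG1 (log2 -0.29 ± 0.08). In the list that holds LIN9 (MuvB, DREAM and E2F regulators), 4 of 19 fell and 1 rose, with a median of -0.12. Other checkpoint and passenger genes gave 3 of 7 lower and 1 higher. Of 16 subunits of the anaphase-promoting complex 0 were called (limma, 3 lower and 1 higher at an unadjusted p under 0.05, which 20% of all genes passed), and over 10 arrays 3 were. Genes for the start of S phase were lower in 13 of 24, with MCM10 past both limits (log2 -0.63 ± 0.08, adjusted p = 0.000778).

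The 4 genes called higher in the mean of clones 7 and 8 against mock were BUB3, MKI67, CDKN1A and PCNT, a centrosome scaffold (log2 0.25). In clone 7 alone, MKI67 (log2 0.33, adjusted p = 0.0633) and CDKN1A (log2 0.32, adjusted p = 0.0748) were not called over 12 arrays (limma). Both were called in clone 7 over 10 arrays, and in clone 8 by either set of arrays. BUB3, a checkpoint protein that binds BUB1 and BUB1B, read 11.14, 11.21 and 11.35 in clone 7 and 11.14, 11.33 and 10.93 in clone 8, against 10.60, 10.53 and 10.54 in mock and 11.20, 11.35 and 11.37 in wild-type cells. The mock arrays were the low ones. BUB3 was higher in clones 7 and 8 than in mock (log2 0.62 ± 0.08, adjusted p = 0.00105), lower in mock than in wild-type (log2 -0.75 ± 0.09, adjusted p = 0.0011) and not called between the clones and wild-type cells (log2 -0.13 ± 0.08, adjusted p = 0.368). MKI67, the Ki-67 proliferation marker, had the lowest level in mock too, at log2 0.36 ± 0.07 for the clones against mock (adjusted p = 0.0146), log2 -0.59 ± 0.09 for mock against wild-type (adjusted p = 0.00282) and log2 -0.24 ± 0.07 for the clones against wild-type cells (adjusted p = 0.0655). BUB3 and MKI67 are both on chromosome 10. CDKN1A, the p21 inhibitor of cyclin-dependent kinases through which p53 lowers many of these genes, stood higher in clones 7 and 8 than in mock (log2 0.36 ± 0.08, adjusted p = 0.0166) and than in wild-type cells (log2 0.61 ± 0.08, adjusted p = 0.000446). Its levels were 11.55, 11.56 and 11.79 in clone 7 and 11.82, 11.80 and 11.51 in clone 8, against 11.34, 11.32 and 11.28 in mock and 11.03, 11.05 and 11.12 in wild-type cells, with no overlap. What part CDKN1A has in the levels of the mitosis genes was not tested.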

How the data were processed

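Total RNA of 12 A172 cultures (clone 7, clone 8, mock and wild-type, 3 each) was hybridized to Affymetrix Human Gene 1.0 ST arrays. The authors deposited normalized log2 levels for each probe set on each array. The submitters' processing notes name Partek, with no version, and how they were normalized is not given in sources used here. There were no detection calls, and precision is limited by the number of arrays. Of 33297 probe sets, 19460 were annotated by the platform with 1 symbol, and that with the highest mean over 12 arrays stood for each of 18417 genes. A model of the 4 group means was fitted with limma 3.58.1 (lmFit and eBayes, R 4.3.3) and Benjamini-Hochberg adjustment ran over all genes of a contrast. The fit was tested on simulated data with independent noise on each array and correct labels. These did not cover genes that vary together or arrays that resemble another group. Calls used an adjusted p under 0.05, alone or with at least 1.5-fold. Errors are SE of differences and SD of levels. The arrays were not paired by replicate number in the main fit. Per-array values are given for members past both limits in a contrast and for the most and least changed of each role, and genes outside the list are named where past both limits or the most changed of the called genes in their list. Members and lists were chosen by function, with earlier results of these data known. Alternatives were other normalizations, a filter on dim genes, the mean of probe sets, trended and robust variance, array weights, fewer groups, a replicate block, other fold limits and each array left out. The study's cell cycle and other assays were not analysed here.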

Additional observations from a re-analysis of the deposited data

How the results depend on the processing

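The medians stayed below 0 in the clones against mock and against wild-type, and 0 members were called higher there, in every alternative run. With 1 array left out, members lower against mock numbered 16 to 44 for both clones (past both limits 2 to 9, the 2 without mock replicate 1 or clone 8 replicate 1, the 9 without clone 7 replicate 3 or clone 8 replicate 2), 5 to 33 for clone 7 (0 to 8) and 7 to 45 for clone 8 (3 to 13), and against wild-type 11 to 38 (2 to 5). The medians were then -0.42 to -0.35, -0.43 to -0.34, -0.47 to -0.29 and -0.35 to -0.22, and for clone 8 against clone 7 -0.09 to 0.07. Array weights gave 10 members past both limits for both clones against mock, 48 lower and 8 past both limits for clone 7, 41 lower against wild-type and 4 higher in mock than in wild-type. Centring gave 3 past both limits for clone 7. Fitting only the groups compared gave 4 lower and 4 past both limits for clone 8, and 3 higher in mock than in wild-type. A fold limit of 1.3 gave 20 (both clones), 18 (clone 7), 22 (clone 8) and 14 (against wild-type), and a limit of 2 gave 0 in each. Shares of all genes called in these alternatives are not given here, so a changed count need not be particular to the members. Leaving out the clone arrays numbered 3 (chosen after seeing the data) gave 43 lower and 8 past both limits for clone 7, 4 past both limits and a median of -0.29 for clone 8, and 35 lower against wild-type. For clone 8 against clone 7 it gave 1 lower, 13 higher and a median of 0.12. Of all 18417 genes, 1965 were lower and 1201 higher in this fit. These values describe these arrays without testing the clones, since the arrays were picked by their values. CHR shares fell to 71.4% with only the bases before the start, a shorter stretch by construction. The cause of the other shifts was not tested.

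The arrays were not paired by replicate number in the main fit. Of 18 correlations between same-numbered arrays, 4 were over 0.1 (-0.83 to 0.45). The lowest was between the clone arrays numbered 3, which each resembled the other clone. As these arrays weigh on the group means of both clones, the correlations cannot settle whether the numbers pair the arrays. A replicate block gave 28 members lower (4 past both limits) for both clones against mock, 14 for clone 7, 21 for clone 8 and 21 against wild-type. The shares of all genes called with this block are not given here. Signs turned only in differences that were not called. For clone 8 against clone 7, CENPI was at 0.0071 with quantile normalization, 0.0236 without clone 7 replicate 3, 0.1069 without clone 8 replicate 3 and 0.1597 without both arrays numbered 3. ERCC6L was at 0.0346 without clone 8 replicate 1, 0.0035 without clone 8 replicate 3 and 0.0332 without both, KIF4A at 0.0318 without clone 8 replicate 3 and 0.0477 without both, and SGO2 at 0.0265 without clone 8 replicate 1. With 1 array left out these differences spanned -0.1845 to 0.1069 for CENPI, -0.1321 to 0.0346 for ERCC6L, -0.3341 to 0.0318 for KIF4A and -0.2054 to 0.0265 for SGO2. For mock against wild-type, CENPI was at -0.0011 without wild-type replicate 1 (range -0.0011 to 0.1054), and PIMREG at 0.0407 without wild-type replicate 3 (range -0.0336 to 0.0407) and above 0 without mock replicate 3.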

Other observations

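All 3 members on the X chromosome, KIF4A, ERCC6L and CENPI, fell in the clones against mock, with a median of -0.61, and each was among the 7 members past both limits in clone 8. Of all 694 genes of that chromosome measured, 3.17% were lower and 2.02% higher, with a median of 0.01. On chromosome 10, which carries BUB3, MKI67 and MCM10, 8.69% of 679 genes were higher and 3.83% lower, and the 3 members there (KIF11, CDK1 and CEP55) had a median of -0.24. Chromosomes were looked at after the values were seen, and no test was made.

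BIRC5 had a second, dim probe set (7.39 to 7.77 on the clone arrays, 7.45 to 7.72 on the mock arrays) at log2 -0.03 ± 0.08, where the brighter one was at log2 -0.29. The probe set shared by CENPA and SLC35F6 was at log2 -0.16 ± 0.09.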
